A study of Homo sapiens with 6 samples.

Results

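The state of THP-1 cells after the compound LC53 and lipopolysaccharide (LPS) was compared with that of resting cells, using the 2 LC53 plus LPS arrays and the 2 resting arrays, 4 of the 6 arrays in the series. THP-1 is an established human monocytic leukaemia line, so every array came from 1 line. Resting cells received neither agent. LC53 plus LPS cells received 5 µM LC53 15 min before 50 ng/ml LPS, and the LPS lasted 8 h. The 2 LPS arrays, from cells given the same LPS without LC53, are quoted beside the comparison. All groups were kept in 0.5% serum. No group with LC53 alone was analysed here, so the compound's own effect and its effect on the LPS response cannot be told apart. The series title concerns theissenolactone C and the kinases TAK-1 and IKK, and no structure of LC53 was used here.

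LPS, a component of the outer membrane of Gram-negative bacteria, is sensed by TLR4 with its co-receptor MD-2 (the product of LY96). One branch of the signal runs through the kinase TAK1 to the IKK complex, which releases NF-kB, and to the MAP kinases, which activate AP-1. Together these induce cytokines, chemokines and the feedback genes that later shut the pathway off, while another branch induces interferon and, through it, the interferon-stimulated genes. Electrophilic or oxidative stress acts on a separate sensor, KEAP1, which then lets the transcription factor NRF2 switch on genes of glutathione, thioredoxin, NADPH and haem metabolism.

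Single-colour arrays with 31741.0 probes gave linear intensities. The array medians lay between 99.2 and 112.7 for the 4 arrays compared, and were 84.4 and 124.0 with LPS. On each array 38 to 95 probes were saturated. Across probes, which are not independent replicates, the resting arrays correlated at r = 0.993 and the LC53 plus LPS arrays at 0.988, against 0.977 to 0.981 between the groups. All 10 monocytic markers were measured and 7 read over 500 on every array (CD14, CD33, LYZ, CSF1R, CD68, FCER1G and TYROBP), with 0 called between the groups by limma and 4 (all lower after LC53 plus LPS) at an unadjusted p under 0.05. Summed, they read 57616 and 55620 at rest and 57867 and 50284 after LC53 plus LPS. Of 27 measured markers of other cell types, 9 read under 50 on every array, 0 were called and 3 had an unadjusted p under 0.05, and their sums were 10616 and 12110 against 8304 and 8845. NKG7 and PECAM1 made up most of those sums, and none of the 27 was at 0 on all arrays. Nothing in the labels says that the arrays of a group were separate cultures, so p-values measure the spread between these arrays only. In bulk RNA, fewer cells making a transcript and less transcript per cell cannot be told apart.

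A gene was called when limma's moderated test, adjusted by Benjamini-Hochberg over all probes, gave a value under 0.05, and differences below are log2 differences of intensity ± SE with 2 arrays a group. Where both arrays of a group read under 30, as in 1 of the groups for 103 called genes, a plain log2 difference rests on values near the floor, so the difference of log2(value + 50) is given instead, marked "with 50 added" and without an SE, beside the adjusted p of the same test. Against resting, 941 probes (2.96%) and 643 of 18255 genes were called (3.52%), of which 370 were higher (2.03%) and 273 lower (1.5%) in LC53 plus LPS cells. The median difference was 1.79 among the higher genes and -1.51 among the lower ones, and 152 higher and 61 lower genes differed by at least 2. All 643 had arrays that did not overlap between the groups, as did 59.8% of all genes. A lack of overlap with resting, where named below, therefore adds no support to a call. The share of all genes without overlap with the LPS arrays, or with both other groups, was not counted. Such separation, where named below, is description only. The split depended on scaling: 57.5% of the called genes were higher with the values as deposited, 42.5% after quantile normalization (951 higher, 1286 lower), 43.7% after median centring (666 and 859) and 44% after cyclic loess (946 and 1203). The median difference of all genes was 0.10 as deposited and 0.00 after quantile normalization. With a single array left out, 69 and 66 genes were called without LC53 plus LPS replicate 1 and 2, 50 and 60 without resting replicate 1 and 2, and 1007 without either LPS array.

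**Figure D1:**
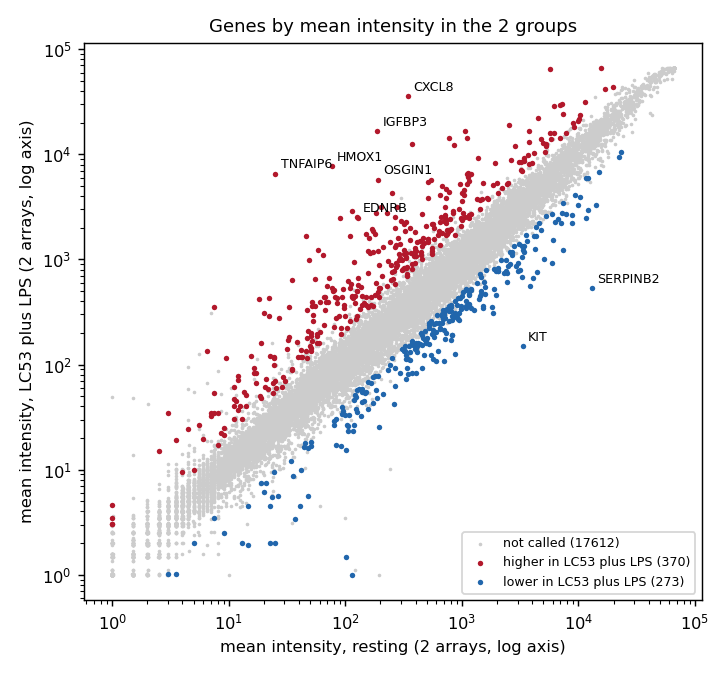
Mean intensity of each of the 18255 genes in resting cells (x axis) and LC53 plus LPS cells (y axis), 2 arrays each, both axes logarithmic; coloured points are the 370 genes called higher and the 273 called lower. CXCL8, TNFAIP6, IGFBP3 and HMOX1 lie far above the diagonal, and KIT and SERPINB2 far below it.

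Most called genes were also called with LPS alone. Of the 370 higher genes, 254 were called higher in LPS cells against the same resting arrays, and of those 254, 173 were not called between LC53 plus LPS and LPS, 69 were lower than in LPS cells and 12 were higher. The other 116 were not called with LPS, and 52 of them were called higher than in LPS cells. Of the 273 lower genes, 158 were called lower with LPS, 108 were not called with LPS and 7 were called higher with LPS. Genes that differed from both other groups in the same direction numbered 64 higher (0.351%) and 49 lower (0.268%). Against the same resting arrays, LPS cells had 812 genes higher (4.45%) and 563 lower (3.08%). In all, 160 genes (0.876%) were called higher and 408 (2.24%) lower in LC53 plus LPS than in LPS cells, and 1375 (7.53%) were called in LPS against resting cells. The comparisons share arrays, so values are set side by side and no overlap is tested.

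The 25 gene lists were written with earlier results of these data known, so their shares and order are descriptive. Among them, the NF-kB subunits and feedback genes had the largest share above resting, 22 of 31 measured members, followed by NRF2 targets with 19 of 34, chemokines with 7 of 27 and inflammatory cytokines with 8 of 33, against 2.03% of all genes. Interferon-stimulated genes stood at 7 of 53. The same lists had 24, 10, 18, 14 and 50 members higher in LPS cells against resting, where 4.45% of all genes were called higher. The median differences from resting in LC53 plus LPS cells were 1.75 for NF-kB genes, 1.67 for NRF2 targets, 0.63 for chemokines, 0.30 for cytokines and 0.53 for interferon-stimulated genes, beside 0.10 for all genes. In LPS cells the medians were 2.69, 0.46, 4.03, 0.93 and 3.15, beside -0.07 for all genes. No member of these lists was called lower than resting in LC53 plus LPS cells except 2 cytokines, though 1 to 2 interferon-stimulated genes were after quantile normalization, median centring or cyclic loess. Those 3 scalings raised the interferon-stimulated count above resting to between 15 and 17 and the chemokine count to between 10 and 11. Calls over all 18255 genes rose as well, from 370 to between 666 and 951 higher and from 273 to between 859 and 1286 lower. Leaving out 1 of the 4 arrays compared lowered the NF-kB count to between 5 and 6, the NRF2 count to between 7 and 10, the cytokine count to 1 and the interferon-stimulated count to 0, while the chemokine count lay between 5 and 9.

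**Figure D2:**
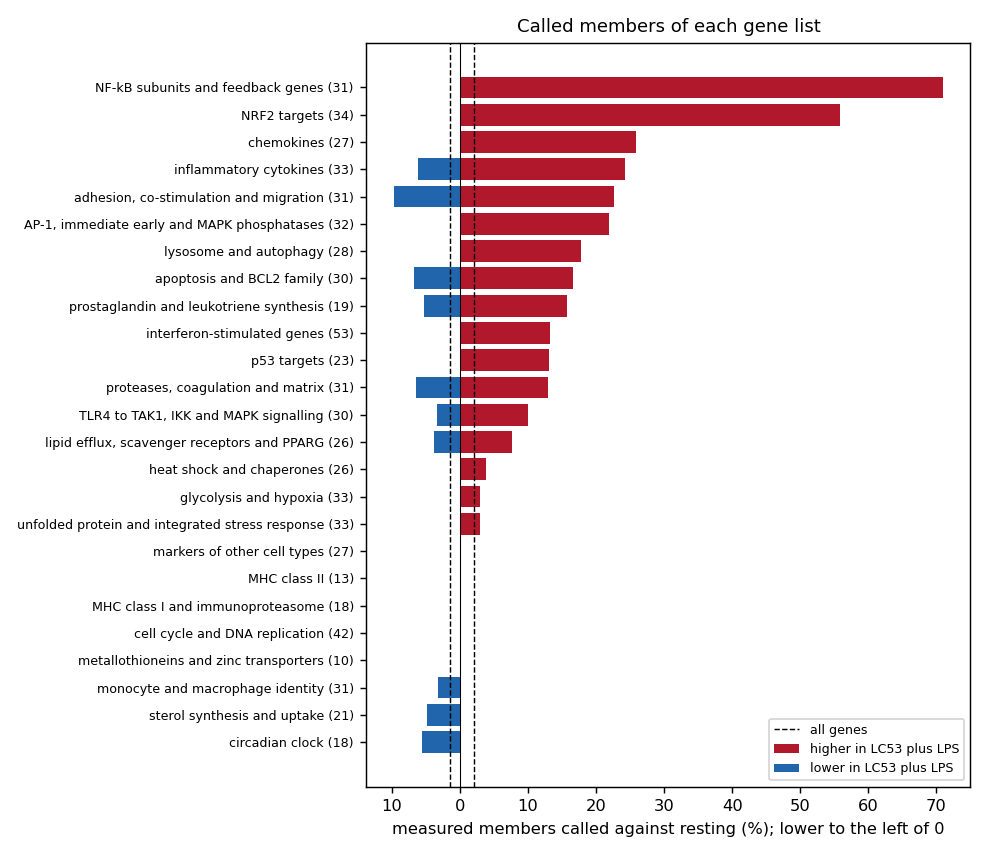
Percentage of the measured members of each list (number in brackets) called higher (right of 0) or lower (left of 0) in LC53 plus LPS cells than in resting cells; dashed lines mark 2.03% higher and 1.5% lower, the shares of all genes. The NF-kB bar (22 of 31) and the NRF2 bar (19 of 34) are the longest.

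**Figure D3:**
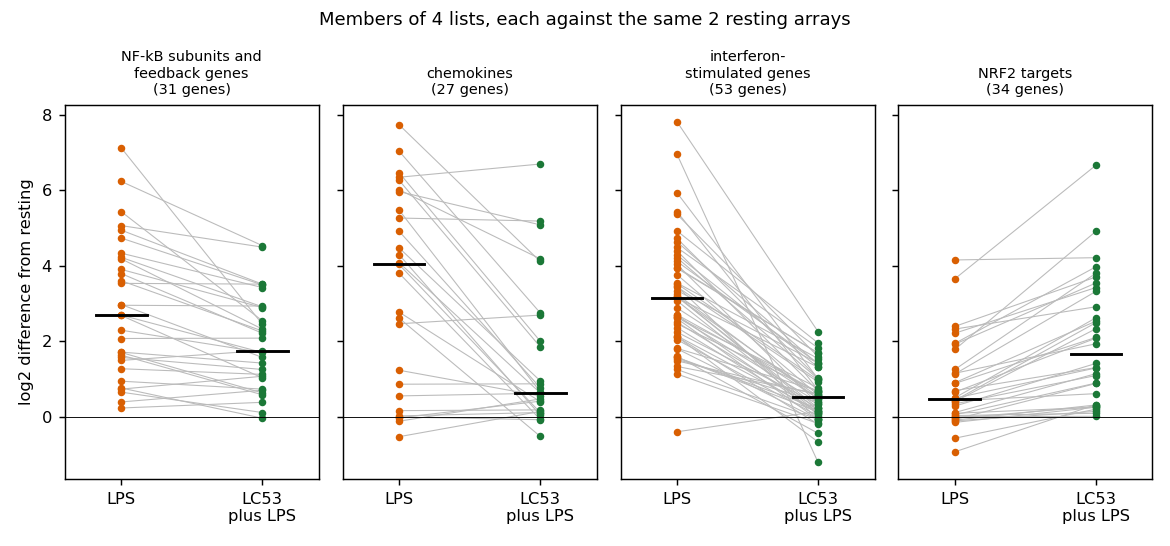
Log2 difference from resting (y axis) for each member of 4 lists in LPS cells and LC53 plus LPS cells, both against the same 2 resting arrays; thin lines join a gene, thick lines are medians. The interferon-stimulated median is 3.15 with LPS and 0.53 with LC53 plus LPS, while the NRF2 median is 0.46 and 1.67.

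Of 27 measured chemokine genes, 7 rose against resting, against 2.03% of all genes, and none fell. CXCL8, CXCL1, CXCL2 and CXCL3, which attract neutrophils, were among the 7, with CXCL10, CCL2 and CCL3. CXCL8, the main neutrophil attractant of human monocytes, read 332 and 355 at rest, 28285 and 27386 after LPS and 37474 and 33754 after LC53 plus LPS. The LC53 plus LPS arrays were the highest of all, above resting without overlap (6.69 ± 0.18, adjusted p = 0.000763). CXCL1, which acts on the same receptor family, read 360.0 and 384 at rest, 20801 and 25646 after LPS and 13551 and 11743 after LC53 plus LPS. Its LC53 plus LPS arrays lay between the other groups and were above resting (5.08 ± 0.20, adjusted p = 0.00124). CXCL2, a close relative, read 42.6 and 48.4 at rest, 1412 and 2139 after LPS and 1864 and 1447 after LC53 plus LPS. The LC53 plus LPS values fell within those of the LPS arrays (5.18 ± 0.27, adjusted p = 0.00182 against resting). CXCL3 also rose, from 52.6 and 57.5 to 393 and 320.2, with 298 and 309 in LPS cells (2.69 ± 0.20, adjusted p = 0.0046). None of the 4 was called against LPS, with differences from LPS of 0.35 ± 0.18 for CXCL8, -0.87 ± 0.20 for CXCL1, -0.08 ± 0.27 for CXCL2 and 0.23 ± 0.20 for CXCL3.

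The promoters of CXCL8 and CXCL1 are shown because both genes stayed high, and that of CXCL10, a T-cell attractant, because it was above resting yet far below LPS. Windows run from 250 bases before to 50 bases after the start site, from RefSeq on GRCh38.p14, 5′ to 3′ on the gene's strand. Capitals mark matches to GGNNNTTCC (NF-kB), TGACNNNGC (NRF2) and the interferon response motif, in which GAAA is repeated after any 2 bases, on either strand. CXCL8 is at chr4:73740319-73740618, plus strand, CXCL1 at chr4:73869143-73869442, plus strand, and CXCL10 at chr4:76023448-76023747, minus strand.
CXCL8: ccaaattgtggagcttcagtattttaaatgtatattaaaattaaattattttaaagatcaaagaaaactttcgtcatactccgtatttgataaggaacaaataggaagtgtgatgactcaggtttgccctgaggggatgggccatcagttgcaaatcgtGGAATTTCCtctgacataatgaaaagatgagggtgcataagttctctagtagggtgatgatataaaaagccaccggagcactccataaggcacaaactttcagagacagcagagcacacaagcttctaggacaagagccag
CXCL1: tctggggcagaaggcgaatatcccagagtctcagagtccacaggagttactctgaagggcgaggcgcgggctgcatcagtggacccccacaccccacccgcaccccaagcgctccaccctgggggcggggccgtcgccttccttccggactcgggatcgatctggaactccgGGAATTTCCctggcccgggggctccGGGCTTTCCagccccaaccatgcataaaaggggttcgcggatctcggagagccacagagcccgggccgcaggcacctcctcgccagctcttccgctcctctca
CXCL10: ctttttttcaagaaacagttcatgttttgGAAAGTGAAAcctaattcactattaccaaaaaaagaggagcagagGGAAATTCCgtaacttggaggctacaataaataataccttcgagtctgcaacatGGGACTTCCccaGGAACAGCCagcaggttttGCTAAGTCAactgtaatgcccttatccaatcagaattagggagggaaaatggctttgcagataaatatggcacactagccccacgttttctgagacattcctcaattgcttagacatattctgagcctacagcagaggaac
CXCL8 held 1 NF-kB match, starting 91 bases before the start site and read on both strands. CXCL1 held 2, starting at -78 (both strands) and -53. CXCL10 held 3, starting at -176 (both strands), -122 and -110, with 1 interferon response match at -221 and 1 NRF2 match at -91. No match in these windows overlaps one of another motif. NF-kB matches were found for 5 of the 6 called chemokine genes with a window and 15 of the 19 called NF-kB genes with a window (78.9%), against 27.1% of the 14579 measured genes with a window, 23.5% of the 27305 genes in the table and 20.1% of its 35097 windows. The interferon response letters occurred for 4.06% of measured genes, 4.38% of all genes in the table and 3.58% of windows, and the NRF2 letters for 18.1%, 16.1% and 13.3%. A match is a description of the letters and not a binding site. The lists were chosen by pathway, with earlier results of these data known, and their uncalled members were not counted. The list shares therefore say nothing about being called.

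Other chemokines were above resting but far below LPS, or near resting. CXCL10 read 57.5 and 71.6 at rest, 13080.0 and 14119 after LPS and 1063 and 1160.5 after LC53 plus LPS. Its LC53 plus LPS arrays lay between the other groups, above resting by 4.11 ± 0.20 (adjusted p = 0.00151) and below LPS with a difference of -3.61 ± 0.20 (adjusted p = 0.0023). CCL2, which recruits monocytes through CCR2, read 321 and 321 at rest, 39793 and 44216 after LPS and 2307 and 2024 after LC53 plus LPS and was likewise intermediate (2.75 ± 0.18, adjusted p = 0.00374 against resting, -4.28 ± 0.18, adjusted p = 0.00189 against LPS). CCL3 went from 32.7 and 37.3 to 730.2 and 546, below the LPS values of 2056 and 2451 (4.18 ± 0.23, adjusted p = 0.00189 against resting, -1.83 ± 0.23, adjusted p = 0.0211 against LPS). These 3 thus kept a called difference from resting in groups that did not overlap. CXCL9, induced by interferon gamma, read 17.2 and 17.9 with LC53 plus LPS against 16.9 and 17.1 in resting and 283 and 390.4 in LPS cells. Its difference from resting was 0.01 with 50 added (adjusted p = 0.951). The plain log2 difference, near the floor, was 0.04. It turned to -0.09 after quantile normalization and after cyclic loess and to -0.05 after median centring. CCL22, a dendritic cell product, read 101 and 73.6 against 126 and 122 in resting cells (-0.52 ± 0.26, adjusted p = 0.411). CCL20 read 728 and 301 after LC53 plus LPS, with replicates far apart, beside 115 and 120.0 at rest and 10302 and 10417 after LPS (adjusted p = 0.0741 against resting). CCL5 read 19291 and 20209.6 in resting cells and 28972 and 28916 after LC53 plus LPS (0.55 ± 0.17, adjusted p = 0.19). CXCL9, CCL22, CCL20 and CCL5 did not pass against resting, and the first 3 were called below LPS, CCL20 with -5.10 and -3.83 without LC53 plus LPS replicate 1 and 2. Of the 7 calls against resting given here, 5 held without each single array (CXCL8, CXCL1, CXCL2, CCL3 and CXCL10), and 1, 0, 2 and 2 were lost without LC53 plus LPS replicates 1 and 2 and resting replicates 1 and 2, each left out alone (adjusted p up to 0.0686). The 6 calls against LPS lost up to 2 when 1 array was left out (adjusted p up to 0.145).

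The NF-kB genes that stayed above resting included its subunits and its inhibitors. NFKB2, which encodes a subunit of the non-canonical pathway, read 168 and 176 at rest, 3128 and 3839 after LPS and 1959.6 and 1735 after LC53 plus LPS. Its LC53 plus LPS arrays were above resting without overlap (3.42 ± 0.20, adjusted p = 0.00225). RELB, its partner, read 152 and 161 at rest, 975 and 1507 after LPS and 1377 and 1033 after LC53 plus LPS. The RELB values of both stimulated groups overlapped and lay above resting (2.93 ± 0.28, adjusted p = 0.00908). NFKB1, the canonical subunit gene, rose from 823 and 860.3 to 2798 and 2677 (1.70 ± 0.23, adjusted p = 0.0238). BCL3, a nuclear IkB protein, had replicates far apart, with 88.3 and 29.2 resting and 1658 and 783 after LC53 plus LPS (4.49 ± 0.63, adjusted p = 0.0277), and its difference was 5.28 without resting replicate 1 and 3.69 without resting replicate 2 (adjusted p = 0.0513 and 0.0996).

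Among the feedback genes, NFKBIA, which encodes IkB alpha, read 15846 and 15364 on the resting arrays. It was saturated on both LC53 plus LPS arrays and both LPS arrays. Its difference from resting was therefore at least 2.08 (adjusted p = 0.00874), and no difference from LPS is read. TNFAIP3, the ubiquitin-editing inhibitor A20, read 1025 and 1265 at rest, 13495 and 14108 after LPS and 4937 and 6096 after LC53 plus LPS. It lay between the other groups (2.27 ± 0.21, adjusted p = 0.00874 against resting, -1.33 ± 0.21, adjusted p = 0.04 against LPS). ZC3H12A, a nuclease that degrades cytokine mRNAs, read 274 and 284 at rest, 6464 and 8492 after LPS and 3474 and 2825 after LC53 plus LPS (3.49 ± 0.22, adjusted p = 0.00308), and was not called against LPS (-1.24 ± 0.22, adjusted p = 0.056). NFKBIZ, another nuclear IkB protein, was intermediate, with 465 and 566 at rest, 9258 and 9826 after LPS and 3499 and 4268 after LC53 plus LPS (2.91 ± 0.21, adjusted p = 0.00442 against resting, -1.30 ± 0.21, adjusted p = 0.0402 against LPS). These 4 genes were above resting without overlap.

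Survival genes of the same list differed in how far they stood from LPS. BIRC3, an inhibitor of apoptosis, read 15.9 and 20.2 at rest, 1407 and 1287 after LPS and 482 and 354 after LC53 plus LPS. It was intermediate (2.77 with 50 added, adjusted p = 0.00182 against resting, -1.70 ± 0.24, adjusted p = 0.0287 against LPS). BCL2A1, a BCL2 relative, read 10.9 and 11.1 at rest, 1562 and 1503 with LPS and 70.7 and 51.3 with LC53 plus LPS (0.86 with 50 added, adjusted p = 0.00776 against resting, -4.67 ± 0.22, adjusted p = 0.00204 against LPS). IER3, an early survival gene, read 63.5 and 71.6 at rest, 2878 and 2949 after LPS and 386 and 397 after LC53 plus LPS (2.54 ± 0.18, adjusted p = 0.00408 against resting, -2.90 ± 0.18, adjusted p = 0.00323 against LPS). The SOD2 probe, for the mitochondrial superoxide dismutase, was saturated on both LPS arrays and 1 LC53 plus LPS array. It was up from 5444 and 5886 at rest, a difference of at least 3.51 for this probe (adjusted p = 0.00184). A second SOD2 probe, below saturation, had means of 1036 at rest, 19448 after LPS and 8993 after LC53 plus LPS. Its difference from resting was 3.11 (adjusted p = 0.00606). CD83, a maturation marker, read 159 and 179.5 at rest, 5034 and 5328 after LPS and 2118 and 1743 after LC53 plus LPS (3.51 ± 0.20, adjusted p = 0.00209 against resting, -1.43 ± 0.20, adjusted p = 0.0269 against LPS). BIRC3, BCL2A1, IER3 and CD83 were all above resting and below LPS, with no overlap on either side. Among these 13 calls against resting, 5 held without each single array (SOD2, CD83, ZC3H12A, NFKB2 and BIRC3), while 7, 7, 8 and 7 were lost without LC53 plus LPS replicates 1 and 2 and resting replicates 1 and 2, each left out alone, with adjusted p up to 0.214. Up to 4 of the 6 calls against LPS were lost without 1 array (adjusted p up to 0.243).

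Of 33 measured cytokine genes, 8 were above resting and 2 below it, against 2.03% and 1.5% of all genes. Against LPS, 10 were lower, beside 2.24% of all genes. The 2 lower genes, named after their values were seen, were IL1RN and TNFSF14. IL1B, a pyrogenic cytokine, read 168 and 198 at rest, 39650.5 and 37746 after LPS and 2696 and 2865 after LC53 plus LPS. It was above resting by 3.93 ± 0.19 (adjusted p = 0.00149) and below LPS with -3.80 ± 0.19 (adjusted p = 0.00218). TNF, the early macrophage cytokine, read 683 and 873 at rest, 13375 and 13751 after LPS and 4263 and 4533 after LC53 plus LPS. It also lay between the groups (2.51 ± 0.20, adjusted p = 0.00573 against resting, -1.63 ± 0.20, adjusted p = 0.0202 against LPS). EBI3, a shared cytokine subunit, went from 64.5 and 69.6 to 337 and 325, with 2410.4 and 3146 in LPS cells (2.30 ± 0.21, adjusted p = 0.00788 against resting, -3.06 ± 0.21, adjusted p = 0.00412 against LPS). IL23A, which pairs with the product of IL12B, read 758 and 734 at rest, 30610.0 and 39727 with LPS and 2104 and 1679 with LC53 plus LPS (1.33 ± 0.22, adjusted p = 0.0438 against resting, -4.21 ± 0.22, adjusted p = 0.00218 against LPS). Each of these 4 was called in both comparisons, with arrays in the order resting, LC53 plus LPS, LPS. IL12B itself read 10.9 and 17.9 with LC53 plus LPS, beside 6.94 and 10.1 at rest and 2893 and 3090.4 with LPS (-5.56 with 50 added, adjusted p = 0.00189 against LPS), and was not called against resting (adjusted p = 0.334). PTGS2, the inducible prostaglandin synthase, read 207 and 250.1 at rest, 1796 and 1923 after LPS and 452 and 530.0 after LC53 plus LPS, narrowly missing the threshold against resting (1.10 ± 0.20, adjusted p = 0.0549) and called below LPS (-1.92 ± 0.20, adjusted p = 0.0128). IL6 read at most 15 on any array, too near 0 for a fold. IL1A rose from 43.6 and 49.4 to 113 and 119 (1.32 ± 0.19, adjusted p = 0.0289), with 244 and 284 in LPS cells. Leaving out 1 array at a time, 1 of the 5 calls against resting held throughout (IL1B), and 4 each were lost without LC53 plus LPS replicates 1 and 2 and resting replicates 1 and 2 (adjusted p up to 0.321). Without 1 array, up to 3 of 7 calls against LPS were lost (adjusted p up to 0.251).

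The interferon-stimulated genes were the list with the most members below LPS, 46 of 53 measured against 2.24% of all genes, and 7 of 53 were above resting against 2.03%. The count above resting was 15 to 17 after quantile normalization, median centring or cyclic loess, 17 with dim probes left out, 12 with an offset of 50, and 0 without any 1 of the 4 arrays compared. Over all genes the higher count, 370 as deposited, was 666 to 951 under those scalings, 680 with dim probes left out and 763 with the offset. IFIT1, which binds viral RNA, read 285 and 293 at rest, 8004 and 9628 after LPS and 1104 and 1129 after LC53 plus LPS. It lay between the groups (1.95 ± 0.19, adjusted p = 0.00914 against resting, -2.97 ± 0.19, adjusted p = 0.00344 against LPS). ISG15, a ubiquitin-like protein, read 293 and 322 at rest, 4231 and 5320.3 with LPS and 1159 and 835 with LC53 plus LPS (1.68 ± 0.24, adjusted p = 0.0295 against resting). OAS1, a sensor of double-stranded RNA, read 356 and 458 at rest, 3603 and 4627 after LPS and 1058 and 1105 after LC53 plus LPS (1.42 ± 0.23, adjusted p = 0.0384 against resting), and OASL, its relative, read 325 and 353 at rest, 6651 and 6475 after LPS and 827 and 850.3 after LC53 plus LPS (1.31 ± 0.17, adjusted p = 0.0233). These 4 stayed above resting without overlap and were called below LPS. IDO1, which degrades tryptophan, read 20.8 and 28.2 at rest, 5356 and 5527 with LPS and 102 and 129 with LC53 plus LPS (1.15 with 50 added, adjusted p = 0.0122 against resting, -5.56 ± 0.24, adjusted p = 0.00189 against LPS). MX1, an antiviral GTPase, read 293 and 349 at rest, 6461 and 9663 after LPS and 983 and 714 after LC53 plus LPS and did not pass against resting (1.39 ± 0.29, adjusted p = 0.0737). MX2, its relative, read 869 and 851 with LC53 plus LPS, within the resting values of 827 and 980.3 and well under the LPS values of 9418 and 10302 (-3.52 ± 0.19, adjusted p = 0.00218 against LPS). IFI44L read 341 and 327 against 214 and 196 at rest and 8562 and 9054 with LPS (0.71 ± 0.18, adjusted p = 0.116 against resting). RSAD2, another antiviral protein, read at most 3 on the 4 arrays compared and 210.4 and 434 with LPS. MX1, MX2, IFI44L and RSAD2 were all called below LPS. Of the 5 calls against resting given here, 0 held without each single array, and 5 each were lost without LC53 plus LPS replicates 1 and 2 and resting replicates 1 and 2, each left out alone (adjusted p up to 0.338). The 9 calls against LPS lost up to 3 when 1 array was left out (adjusted p up to 0.131).

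Surface and adhesion genes gave 7 members above resting and 3 below of 31 measured, against 2.03% and 1.5% of all genes. The 3 scalings raised the lower count to between 6 and 9, while the lower count of all genes rose from 273 to between 859 and 1286. ICAM1, a ligand for leukocyte integrins, read 96.2 and 124 at rest, 6194 and 7123 after LPS and 1585 and 1761 after LC53 plus LPS. Its LC53 plus LPS values lay between (3.93 ± 0.21, adjusted p = 0.00186 against resting, -1.99 ± 0.21, adjusted p = 0.0138 against LPS). CD40, a co-stimulatory receptor, read 1370.4 and 1355 at rest, 24574 and 24162 after LPS and 9721 and 8834 after LC53 plus LPS. It too was intermediate (2.77 ± 0.17, adjusted p = 0.00308 against resting, -1.39 ± 0.17, adjusted p = 0.0209 against LPS). CD274, the inhibitory ligand PD-L1, read 17.8 and 26.2 at rest, 1198 and 1408 with LPS and 439 and 424 with LC53 plus LPS (2.74 with 50 added, adjusted p = 0.00213 against resting, -1.59 ± 0.25, adjusted p = 0.0371 against LPS). TNFRSF9, a co-stimulatory receptor also called 4-1BB, read 103 and 126 at rest, 6064 and 5377 after LPS and 2619 and 3163 after LC53 plus LPS (4.66 ± 0.21, adjusted p = 0.00124 against resting) and was not called against LPS (-0.99 ± 0.21, adjusted p = 0.084). VCAM1, an adhesion molecule, read 11.9 and 12.1 at rest, 3980.2 and 4461 after LPS and 86.1 and 58 after LC53 plus LPS (0.97 with 50 added, adjusted p = 0.00893 against resting, -5.90 ± 0.24, adjusted p = 0.00189 against LPS). All 5 were above resting without overlap. IL7R, a cytokine receptor, read 491 and 425 beside 296 and 272 at rest and 8033 and 9151 with LPS, and did not pass against resting (0.69 ± 0.19, adjusted p = 0.152). The list's count above resting was 3 and 4 without LC53 plus LPS replicate 1 and 2, and 2 and 3 without resting replicate 1 and 2. Among these 5 calls against resting, 3 held without each single array (ICAM1, CD274 and TNFRSF9), while 1, 0, 2 and 1 were lost without LC53 plus LPS replicates 1 and 2 and resting replicates 1 and 2, each left out alone, with adjusted p up to 0.0954. Up to 3 of the 5 calls against LPS were lost without 1 array (adjusted p up to 0.23).

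Several secreted and metabolic genes were among the highest of all genes against resting. TNFAIP6, a hyaluronan-binding protein of inflamed matrix, read 26.8 and 23.2 at rest, 11475 and 16491 after LPS and 7352 and 5729.8 after LC53 plus LPS. Its LC53 plus LPS arrays were far above resting and below those of LPS (6.45 with 50 added, adjusted p = 0.000802). IGFBP3, an insulin-like growth factor carrier, read 180.5 and 195 at rest, 28545 and 35549.5 after LPS and 18805 and 14268 after LC53 plus LPS. The groups did not overlap (6.45 ± 0.23, adjusted p = 0.00113). CRIM1, a transmembrane modulator of BMP signals, read 81.3 and 97.8 at rest, 2733 and 3413 after LPS and 2471 and 2521 after LC53 plus LPS (4.81 ± 0.21, adjusted p = 0.00124). IL4I1, a secreted amino acid oxidase, read 1057 and 1076 at rest, 39483 and 41873 after LPS and 16788 and 16280.0 after LC53 plus LPS (3.95 ± 0.17, adjusted p = 0.00124 against resting), and was the only one of these 4 called below LPS (-1.30 ± 0.17, adjusted p = 0.0238). THBS1, a matrix glycoprotein, rose from 17.8 and 22.2 to 286 and 328 (2.35 with 50 added, adjusted p = 0.00175), and PLAUR, the urokinase receptor, from 796 and 865 to 3145 and 2670.2 (1.80 ± 0.20, adjusted p = 0.0149). PLA2G7, which hydrolyses platelet-activating factor, rose from 38.7 and 59.5 to 1133 and 836 (4.34 ± 0.33, adjusted p = 0.00527). ALOX5AP, needed for leukotriene synthesis, ACSL1, which activates fatty acids, and SLC16A3, a lactate exporter, were higher by 1.08, 2.15 and 1.46 (adjusted p = 0.0448, 0.00595 and 0.0422) and not called against LPS. Leaving out 1 array at a time, 6 of the 10 calls against resting held throughout (TNFAIP6, IGFBP3, CRIM1, IL4I1, THBS1 and PLA2G7), and 4 each were lost without LC53 plus LPS replicates 1 and 2 and resting replicates 1 and 2 (adjusted p up to 0.386). Without 1 array, the 1 call against LPS was lost (adjusted p up to 0.201).

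**Figure D4:**
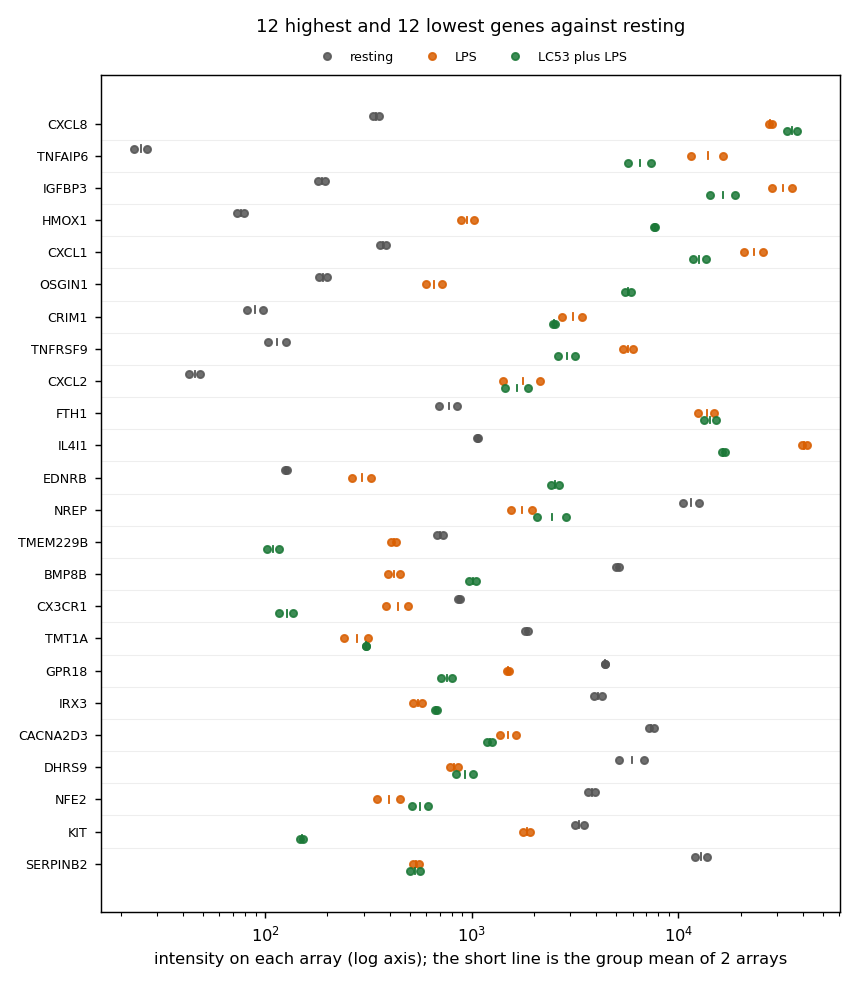
Intensity on each of the 6 arrays (x axis, logarithmic) for the 12 highest and 12 lowest called genes against resting by difference of log2(value + 50); short lines are group means of 2 arrays. For CXCL8, CRIM1, FTH1 and SERPINB2 the LPS and LC53 plus LPS points lie together, while HMOX1, OSGIN1, EDNRB and KIT have LC53 plus LPS points beyond both other groups.

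The AP-1 and MAP kinase feedback list had 7 of 32 members above resting and none below, against 2.03% and 1.5% of all genes, and 2 below LPS, against 2.24%. With an offset of 50 and with dim probes left out the count above resting was 11, and 2 to 3 members were below resting under the scalings, the offset and the filter. Over all genes 763 were higher with the offset and 680 with the filter, beside 370 as deposited. Lower genes numbered 668 to 1286 under those settings, beside 273. DUSP1, a phosphatase that switches MAP kinases off, read 96.2 and 89.8 at rest, 417 and 466 after LPS and 455 and 425 after LC53 plus LPS. Both stimulated groups overlapped and lay above resting (2.24 ± 0.18, adjusted p = 0.00587). DUSP4, of the same family, had the same pattern, from 303 and 285 to 1459 and 1347 beside 1357 and 1483 in LPS cells (2.25 ± 0.18, adjusted p = 0.00561). EGR2, an immediate early factor, rose from 33.7 and 60.5 to 342 and 311 (2.85 ± 0.33, adjusted p = 0.0157), and ATF3, a stress factor that restrains cytokine genes, from 707 and 766 to 3187 and 4426 (2.35 ± 0.23, adjusted p = 0.00908). The kinase genes MAP3K8 and IRAK2, of the TLR4 list, were above resting by 1.78 ± 0.19 and 2.65 ± 0.23 (adjusted p = 0.0129 and 0.00703). None of these 6 was called against LPS. The list count was 0 without LC53 plus LPS replicate 1, LC53 plus LPS replicate 2 or resting replicate 1, and 1 without resting replicate 2. Of the 6 calls against resting given here, 0 held without each single array, and 6, 6, 6 and 5 were lost without LC53 plus LPS replicates 1 and 2 and resting replicates 1 and 2, each left out alone (adjusted p up to 0.16).

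Of 34 measured NRF2 targets, 19 were called above resting, against 2.03% of all genes, and 12 above LPS, against 0.876%. HMOX1, which breaks down haem, read 73.4 and 78.7 at rest, 886 and 1019 after LPS and 7712 and 7642 after LC53 plus LPS. The LC53 plus LPS arrays were the highest and apart from both other groups (6.66 ± 0.18, adjusted p = 0.000763 against resting, 3.01 ± 0.18, adjusted p = 0.00314 against LPS). OSGIN1, an oxidative stress response gene, read 198 and 183 at rest, 598 and 715 after LPS and 5909 and 5535 after LC53 plus LPS. It had the same order of groups (4.91 ± 0.19, adjusted p = 0.00124 against resting, 3.13 ± 0.19, adjusted p = 0.00323 against LPS). SRXN1, sulfiredoxin, which restores peroxiredoxins, read 977 and 742 at rest, 1643 and 2499 after LPS and 14967 and 9396 after LC53 plus LPS. Its replicates were further apart, yet the groups did not overlap (3.80 ± 0.34, adjusted p = 0.00776 against resting, 2.55 ± 0.34, adjusted p = 0.0237 against LPS). SLC7A11, the cystine transporter for glutathione synthesis, rose from 1055 and 1142 to 14744 and 13888, with 5294 and 6237 in LPS cells (3.70 ± 0.19, adjusted p = 0.0017 against resting, 1.32 ± 0.19, adjusted p = 0.0296 against LPS). SQSTM1, the autophagy receptor p62, rose from 190.4 and 216 to 3461 and 2906, with 695 and 868 in LPS cells (3.97 ± 0.21, adjusted p = 0.00184 against resting, 2.03 ± 0.21, adjusted p = 0.013 against LPS). These 5 genes were called above both resting and LPS.

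Further members of the NRF2 list covered redox and NADPH enzymes. PIR, an iron-binding nuclear protein, rose from 516 and 561 to 5930.4 and 5549 (3.42 ± 0.19, adjusted p = 0.00213) and TRIM16L from 153 and 165 to 1662 and 1525 (3.32 ± 0.18, adjusted p = 0.00184). The carbonyl reductase gene CBR3 rose from 267 and 301 to 1594 and 1588 (2.49 ± 0.19, adjusted p = 0.00512), and the aldo-keto reductase gene AKR1C1, whose close paralogs a probe may share, from 76.4 and 93.8 to 423 and 427 (2.33 ± 0.21, adjusted p = 0.00804). All 4 were also called above LPS. The NADPH-producing enzyme genes PGD and ME1 were higher by 2.10 ± 0.20 and 2.91 ± 0.20 (adjusted p = 0.00886 and 0.00387), and PGD was above LPS too (1.22 ± 0.20, adjusted p = 0.0421). GSR, glutathione reductase, was higher by 2.53 ± 0.30 (adjusted p = 0.0174) with LC53 plus LPS values of 8066 and 5263. TXNRD1, thioredoxin reductase, rose from 8302 and 6143 to 33809 and 26806 (2.08 ± 0.25, adjusted p = 0.0179) and narrowly missed the threshold against LPS (1.43 ± 0.25, adjusted p = 0.0532). GCLM, the regulatory subunit of glutathione synthesis, read 224 and 228 at rest, 677 and 1076 after LPS and 3703 and 1876 after LC53 plus LPS. Its LC53 plus LPS replicates differed widely (3.54 ± 0.39, adjusted p = 0.0137 against resting). GCLM was called higher with LPS alone (1.92 ± 0.39, adjusted p = 0.0467) and was not called against LPS (1.63 ± 0.39, adjusted p = 0.106). FTH1, the ferritin heavy chain, rose from 697 and 848 to 15208 and 13368 (4.21 ± 0.21, adjusted p = 0.00164), with 12512 and 14888 in LPS cells, and the gene has many pseudogene copies that a probe may share. NQO1, a classical NRF2 target, read 17 to 22 on every array and was not called (0.02 with 50 added, adjusted p = 0.892). Its plain log2 difference, near the floor, was 0.09. The sign turned under 3 scalings (-0.04, -0.00 and -0.08) and without resting replicate 1 (-0.11). Of the 15 NRF2 targets named here as above resting, 9 were also called higher with LPS alone, PIR and ME1 among them. Among these 15 calls against resting, 7 held without each single array (HMOX1, OSGIN1, SLC7A11, FTH1, PIR, TRIM16L and SQSTM1), while 7, 5, 8 and 7 were lost without LC53 plus LPS replicates 1 and 2 and resting replicates 1 and 2, each left out alone, with adjusted p up to 0.155. Up to 8 of the 10 calls against LPS were lost without 1 array (adjusted p up to 0.292).

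The promoters of GCLM and TXNRD1, 2 called NRF2 targets, are shown for their NRF2 letters, and that of OSGIN1, the second highest target, because it held no match to any of the 3 motifs. Capitals mark the same motifs as before, on either strand. GCLM is at chr1:93909381-93909680, minus strand, TXNRD1 has windows at chr12:104215529-104215828 and chr12:104286782-104287081, plus strand, and OSGIN1 is at chr16:83952990-83953289, plus strand.
GCLM: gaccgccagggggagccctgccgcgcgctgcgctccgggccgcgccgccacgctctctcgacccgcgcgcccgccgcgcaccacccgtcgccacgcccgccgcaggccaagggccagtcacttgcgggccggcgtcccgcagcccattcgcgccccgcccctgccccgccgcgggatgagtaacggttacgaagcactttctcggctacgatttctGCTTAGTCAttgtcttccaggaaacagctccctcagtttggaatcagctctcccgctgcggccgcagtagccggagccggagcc
TXNRD1 window 1: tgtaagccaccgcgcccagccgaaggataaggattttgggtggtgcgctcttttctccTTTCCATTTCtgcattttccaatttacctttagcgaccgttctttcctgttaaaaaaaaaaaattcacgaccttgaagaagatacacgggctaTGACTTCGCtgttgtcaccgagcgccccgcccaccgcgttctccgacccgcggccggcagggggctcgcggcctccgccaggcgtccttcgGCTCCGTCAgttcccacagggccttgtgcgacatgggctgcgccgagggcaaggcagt
TXNRD1 window 2: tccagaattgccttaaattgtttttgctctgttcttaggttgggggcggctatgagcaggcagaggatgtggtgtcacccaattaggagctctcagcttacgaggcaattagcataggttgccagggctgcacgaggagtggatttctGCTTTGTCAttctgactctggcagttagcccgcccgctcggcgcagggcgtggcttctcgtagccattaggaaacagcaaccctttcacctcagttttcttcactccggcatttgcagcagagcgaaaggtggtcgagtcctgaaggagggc
OSGIN1: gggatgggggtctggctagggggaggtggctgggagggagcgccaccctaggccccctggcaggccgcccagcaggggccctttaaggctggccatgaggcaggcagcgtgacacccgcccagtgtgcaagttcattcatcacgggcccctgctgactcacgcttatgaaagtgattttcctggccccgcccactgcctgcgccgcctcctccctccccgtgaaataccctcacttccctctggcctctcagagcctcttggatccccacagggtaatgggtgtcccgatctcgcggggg
GCLM held 1 NRF2 match, starting 34 bases before the start site. The first TXNRD1 window held 2, starting at -99 and -8, with 1 interferon response match at -192, and the second window held 1 at -102. NRF2 letters were found for 5 of the 11 called NRF2 targets with a window (45.5%) and for 15 of the 48 genes above both resting and LPS with a window (31.2%), against 18.1% of measured genes with a window and 16.1% of all genes in the table. Among all higher genes the share was 20.1%, and among lower genes 20.6%. Uncalled members of the NRF2 list were again not counted, so its share says nothing about being called.

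Genes above both resting and LPS outside the NRF2 list had varied roles. EDNRB, an endothelin receptor, read 127 and 124 at rest, 262 and 325 after LPS and 2648 and 2406 after LC53 plus LPS. These values after LC53 plus LPS stood apart from both other groups (4.33 ± 0.20, adjusted p = 0.00124 against resting, 3.11 ± 0.20, adjusted p = 0.00344 against LPS). MTHFD2L, a mitochondrial folate enzyme, read 287 and 314 at rest, 452 and 543 after LPS and 2297 and 2329 after LC53 plus LPS (2.95 ± 0.19, adjusted p = 0.00315 against resting, 2.22 ± 0.19, adjusted p = 0.00721 against LPS). NMT2, which attaches myristate to proteins, read 117 and 120.0 at rest, 157 and 186 after LPS and 920.5 and 977 after LC53 plus LPS (3.00 ± 0.19, adjusted p = 0.00283 against resting, 2.47 ± 0.19, adjusted p = 0.00546 against LPS). With LPS alone the differences from resting were 1.22 ± 0.20 for EDNRB, which was called, and 0.73 ± 0.19 for MTHFD2L and 0.53 ± 0.19 for NMT2, which were not. C22orf42 went from 59.5 and 78.7 to 545 and 563 (3.02 ± 0.22, adjusted p = 0.00491) and ANKRD30BL from 1209 and 1189 to 7060.1 and 6008 (2.44 ± 0.21, adjusted p = 0.00725), with 79.2 and 96.2 and 979 and 1261 respectively after LPS. PLIN2, the coat protein of lipid droplets, rose from 6646 and 8027 to 23049 and 25183, while LPS cells read 6784 and 6871 (1.72 ± 0.19, adjusted p = 0.0144). ICOSLG, a co-stimulatory ligand, rose from 169.6 and 177 to 1149 and 1194 (2.75 ± 0.19, adjusted p = 0.00387). LY96, the TLR4 co-receptor, rose from 265 and 265 to 588 and 577, with 252 and 273 in LPS cells (1.14 ± 0.17, adjusted p = 0.034). For these 5 the LC53 plus LPS arrays lay above all arrays of both other groups, while the resting and LPS arrays of ANKRD30BL, PLIN2 and LY96 overlapped each other. DNAJB4, a chaperone, was the single heat shock member of 26 called above resting (1.72 ± 0.19, adjusted p = 0.0134). The apoptosis inducer PMAIP1, the lysosomal protease CTSL and the sheddase ADAM17 were higher by 2.09, 1.19 and 1.42 (adjusted p = 0.00782, 0.0389 and 0.0217), as were the tryptophan pathway genes TDO2 and ACMSD by 1.28 and 2.72 (adjusted p = 0.0361 and 0.0106). PMAIP1 was also called higher with LPS alone (0.99 ± 0.19, adjusted p = 0.0378). In all, 3 of the 14 genes named here were called higher with LPS alone, EDNRB and PMAIP1 among them. Leaving out 1 array at a time, 2 of the 14 calls against resting held throughout (EDNRB and NMT2), and 10, 11, 12 and 10 were lost without LC53 plus LPS replicates 1 and 2 and resting replicates 1 and 2 (adjusted p up to 0.369). Without 1 array, up to 13 of 14 calls against LPS were lost (adjusted p up to 0.308).

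**Figure D5:**
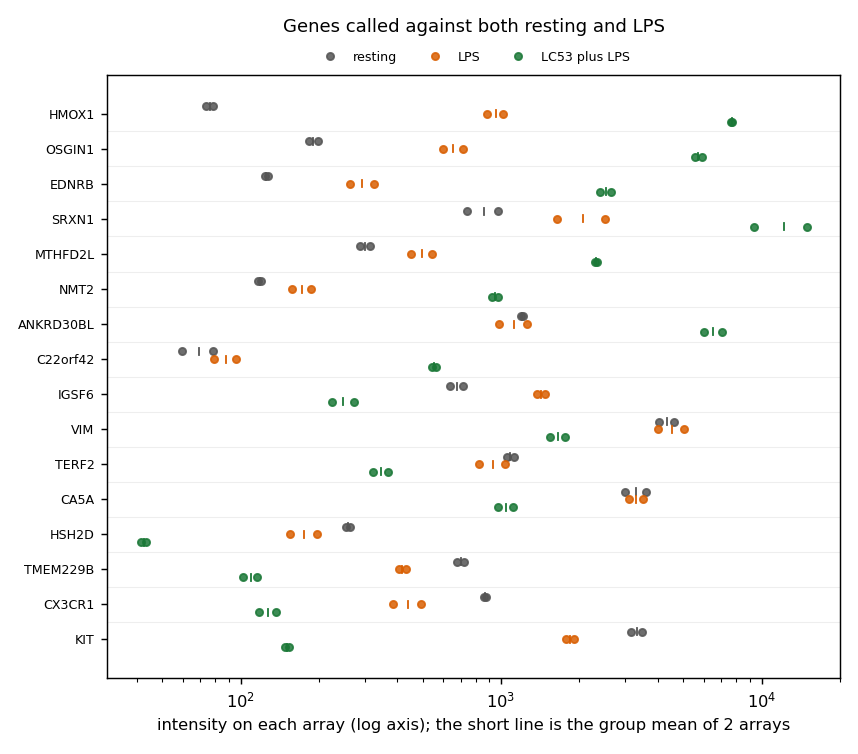
Intensity on each array (x axis, logarithmic) for the 8 highest and 8 lowest genes called in the same direction against both resting and LPS; short lines are group means of 2 arrays. HMOX1, OSGIN1 and EDNRB have LC53 plus LPS points to the right of both other groups, and KIT, CX3CR1 and TMEM229B to the left.

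The 49 genes below both resting and LPS, 0.268% of all genes, also had varied roles. KIT, the stem cell factor receptor, read 3162 and 3479 at rest, 1779 and 1905 after LPS and 148 and 153 after LC53 plus LPS. After LC53 plus LPS it was far below both other groups (-4.46 ± 0.18, adjusted p = 0.00124 against resting, -3.62 ± 0.18, adjusted p = 0.00218 against LPS). CX3CR1, the fractalkine receptor of monocytes, read 858 and 875 at rest, 385 and 491 after LPS and 137 and 117 after LC53 plus LPS. It had the same order (-2.77 ± 0.21, adjusted p = 0.00512 against resting, -1.78 ± 0.21, adjusted p = 0.0183 against LPS). CCR2, the receptor for CCL2, read 13607 and 14424 at rest, 7276 and 8909.7 after LPS and 3571 and 3031 after LC53 plus LPS. It fell as well (-2.09 ± 0.20, adjusted p = 0.0096 against resting, -1.29 ± 0.20, adjusted p = 0.039 against LPS). TMEM229B fell from 675 and 722 to 102 and 116 (-2.68 ± 0.18, adjusted p = 0.00387) and HSH2D, an adaptor of haematopoietic cells, from 255 and 263 to 43.5 and 41.3 (-2.61 ± 0.20, adjusted p = 0.00512). VIM, the intermediate filament vimentin, fell from 4052 and 4595 to 1547 and 1759.7, with 4007 and 5040.4 in LPS cells (-1.39 ± 0.21, adjusted p = 0.0335). TERF2, a telomere protein, fell from 1118 and 1053 to 369.6 and 322 (-1.65 ± 0.20, adjusted p = 0.0187) and CA5A, a mitochondrial carbonic anhydrase, from 2979.8 and 3594 to 973 and 1115 (-1.65 ± 0.20, adjusted p = 0.0184). For none of these 8 did the LC53 plus LPS arrays overlap either other group, a trait whose share over all genes was not counted. None was called between LPS and resting. With LPS alone KIT, CX3CR1, CCR2 and TMEM229B still stood below resting, by -0.85, -0.99, -0.80 and -0.74 (limma adjusted p = 0.0512, 0.0527, 0.0883 and 0.0799). The LPS differences were -0.57 for HSH2D, -0.23 for TERF2, 0.06 for VIM and 0.01 for CA5A. The inflammasome sensor NAIP, the B-cell adaptor BLNK, the kinase FYN and the clock gene CIART were also below both, with differences from resting of -1.93, -1.81, -1.37 and -1.31 (adjusted p = 0.00814, 0.00908, 0.0279 and 0.0389). Of the 12 calls against resting given here, 1 held without each single array (KIT), and 10, 10, 11 and 11 were lost without LC53 plus LPS replicates 1 and 2 and resting replicates 1 and 2, each left out alone (adjusted p up to 0.314). The 12 calls against LPS lost up to 11 when 1 array was left out (adjusted p up to 0.277).

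Of the 7 genes higher with LPS and lower than resting with LC53 plus LPS, IL1RN encodes the antagonist of the IL1B receptor. IL1RN read 2734 and 2839 at rest, 14436 and 14546 after LPS and 1355 and 1340.1 after LC53 plus LPS. Both LC53 plus LPS arrays were the lowest of the 3 groups (-1.05 ± 0.17, adjusted p = 0.0397 against resting, -3.43 ± 0.17, adjusted p = 0.00218 against LPS). IGSF6, a myeloid surface protein, showed the same order with 637 and 717 at rest, 1377 and 1471 after LPS and 224 and 272 after LC53 plus LPS (-1.45 ± 0.20, adjusted p = 0.0249 against resting, -2.53 ± 0.20, adjusted p = 0.00583 against LPS). FGL2, a secreted immune regulator, read 362 and 459 at rest, 2716 and 2688 after LPS and 130.5 and 169.6 after LC53 plus LPS (-1.45 ± 0.23, adjusted p = 0.0358 against resting, -4.18 ± 0.23, adjusted p = 0.00218 against LPS), and CLEC10A, a lectin of myeloid cells, 99.2 and 89.8 at rest, 400.0 and 488 after LPS and 37.1 and 34.6 after LC53 plus LPS (-1.40 ± 0.20, adjusted p = 0.0274 against resting, -3.62 ± 0.20, adjusted p = 0.00218 against LPS). TCF4 was below resting with a difference of -1.07 ± 0.18 (adjusted p = 0.0426), and JAML went from 29.7 and 23.2 to 4.53 and 6.69, near the floor of the array (-0.46 with 50 added, adjusted p = 0.0207). DSC3 completes the 7. SLA, an adaptor that damps antigen receptor signals, was below both groups but not called with LPS (-1.30 ± 0.19, adjusted p = 0.0292 against resting, -2.19 ± 0.19, adjusted p = 0.00716 against LPS). Among these 7 calls against resting, 0 held without each single array, while 7 each were lost without LC53 plus LPS replicates 1 and 2 and resting replicates 1 and 2, each left out alone, with adjusted p up to 0.386. Up to 3 of the 7 calls against LPS were lost without 1 array (adjusted p up to 0.0664).

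Of the 158 genes lower than resting in both stimulated groups, 154 were not called between LC53 plus LPS and LPS. SERPINB2, a serine protease inhibitor of monocytes, read 12076 and 13804 at rest, 554 and 519 after LPS and 503 and 563 after LC53 plus LPS. Both stimulated groups overlapped far below resting (-4.60 ± 0.19, adjusted p = 0.00124). NFE2, a transcription factor of blood cells, fell from 3962 and 3659 to 612 and 512 (-2.77 ± 0.22, adjusted p = 0.00548) and IRX3, a homeobox factor, from 4246 and 3922 to 676 and 666 (-2.60 ± 0.18, adjusted p = 0.00387). DHRS9, a retinoid dehydrogenase, fell from 5145 and 6822 to 839.8 and 1009 (-2.69 ± 0.23, adjusted p = 0.00647), and CACNA2D3, a calcium channel subunit, from 7186 and 7615 to 1183 and 1258 (-2.60 ± 0.19, adjusted p = 0.0046). None of these 5 was called against LPS, where NFE2 read 349 and 450.0 and DHRS9 780.2 and 861. TMT1A fell to 309 and 307 from 1878 and 1814 (-2.58 ± 0.20, adjusted p = 0.00548), NREP to 2844 and 2068 from 12612 and 10508 (-2.25 ± 0.25, adjusted p = 0.0145) and GPR18, a lipid receptor, to 713 and 803 from 4413 and 4398 (-2.54 ± 0.18, adjusted p = 0.00405). BMP8B, a growth factor of the BMP family, fell from 5014 and 5135 to 1046 and 969.7 (-2.33 ± 0.18, adjusted p = 0.00539) and was 1 of 4 genes above LPS (1.27 ± 0.18, adjusted p = 0.0299), the others being CA3, MTARC1 and MYBPHL. BCL2, the survival factor, and the leukocyte adhesion genes ITGAL and SELPLG were lower, with differences of -1.75, -1.09 and -1.66 (adjusted p = 0.0176, 0.0358 and 0.0215). MAP2K6, a kinase upstream of p38, read 39.7 and 34.3 at rest and 4.53 and 2.23 after LC53 plus LPS (adjusted p = 0.0129), near the floor. Leaving out 1 array at a time, 1 of the 13 calls against resting held throughout (SERPINB2), and 11, 11, 12 and 12 were lost without LC53 plus LPS replicates 1 and 2 and resting replicates 1 and 2 (adjusted p up to 0.349). Without 1 array, the 1 call against LPS was lost (adjusted p up to 0.209).

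In the remaining lists the called share ran from 0 to 23.3%, beside 3.52% of all genes. It was 23.3% for apoptosis genes, 21.1% for prostaglandin and leukotriene synthesis, 19.4% for proteases and matrix genes, 17.9% for lysosome and autophagy genes, 13.3% for TLR4 to MAP kinase signalling and 13% for p53 targets. Of 30 measured genes from TLR4 to TAK1, IKK and the MAP kinases, 3 were higher and 1 lower. MAP3K7, which encodes TAK1, read 822 and 1168 at rest against 1671 and 1227 after LC53 plus LPS (0.55 ± 0.31, adjusted p = 0.466), IKBKB 5673 and 6516 against 4452 and 5530.1 (-0.29 ± 0.20, adjusted p = 0.554), and TLR4 226 and 319 against 195 and 203 (-0.43 ± 0.27, adjusted p = 0.52), none of them called. Of 28 lysosome and autophagy genes 5 were higher, among them the galactosidase gene GLA (1.21 ± 0.18, adjusted p = 0.034) and the transcription factors MITF (1.83 ± 0.24, adjusted p = 0.0215) and TFEB (1.47 ± 0.19, adjusted p = 0.0202). TFEB was equally high with LPS alone, at 3473 and 3967 (1.47 ± 0.19, adjusted p = 0.0106), while GLA and MITF were not called with LPS. Further MITF probes were not called, with 1.34, 1.13 and -0.04 (adjusted p = 0.0605, 0.0625 and 0.949). Nor were further TFEB probes, with 0.72 and 1.68 (adjusted p = 0.19 and 0.575). The p53 target list had 3 of 23 higher, with BTG2 and PLK3 below LPS, and the apoptosis list 5 higher and 2 lower of 30, with BMF higher by 1.63 ± 0.22 (adjusted p = 0.0252). BMF was also called higher with LPS alone (2.21 ± 0.22, adjusted p = 0.00522), as were BTG2 and PLK3. Of the lipid mediators' 19 genes, 3 were higher, including thromboxane synthase TBXAS1 (1.63 ± 0.19, adjusted p = 0.0171), and the lipoxygenase ALOX5 was lower (-1.43 ± 0.19, adjusted p = 0.0218). Without any 1 of the 4 arrays compared, the lysosome and lipid mediator counts above resting were 1, the apoptosis count 1 or 2, the protease count 2, and the TLR4 pathway and p53 counts 0. Under the 3 scalings the TLR4 pathway count was 5 to 6, the p53 count 4 to 6 and the sterol count below resting 4 to 6, and 7 to 9 monocyte identity genes were below resting. Over all genes those scalings gave 666 to 951 higher and 859 to 1286 lower, beside 370 and 273 as deposited. The sterol enzyme gene LSS (-1.07 ± 0.18, adjusted p = 0.0479) and the lipid transfer gene PLTP (-1.19 ± 0.19, adjusted p = 0.0358) were the single lower members of their lists. SLC3A2, the partner of SLC7A11, was the only called member of 33 unfolded protein and integrated stress genes (1.17 ± 0.18, adjusted p = 0.0344), where DDIT3 read 6216 and 6922 at rest against 6466 and 8802 (0.20 ± 0.23, adjusted p = 0.722). HSPA1A, an inducible chaperone, read 3706 and 4160.1 at rest against 3959 and 3513 (-0.07 ± 0.19, adjusted p = 0.888). DDIT3 and HSPA1A were not called, and their signs turned without LC53 plus LPS replicate 2. limma called 0 of 42 cell cycle genes, 10 metallothionein and zinc transporter genes, 18 MHC class I genes and 13 MHC class II genes, of which 8, 3, 5 and 1 had an unadjusted p under 0.05, and 1 of 31 monocyte identity genes was lower (CX3CR1). Among the proteases and matrix genes 4 were higher and 2 lower of 31, and 1 of 33 glycolysis and hypoxia genes was higher and 1 of 18 clock genes lower. Of the 11 calls against resting given here, 0 held without each single array, and 11 each were lost without LC53 plus LPS replicates 1 and 2 and resting replicates 1 and 2, each left out alone (adjusted p up to 0.409). The 2 calls against LPS lost up to 2 when 1 array was left out (adjusted p up to 0.249).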

How the data were processed

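RNA of THP-1 cells was amplified, labelled with Cy5 and hybridised to single-colour arrays, per the labels' protocols. The authors' deposited values were linear intensity, each a whole number multiplied by a factor particular to its array (tolerance 0.02). Scanner, background and normalization steps are not given in the sources used here. From these values, those under 1 were set to 1, log2 was taken and 1 mean per group was fitted over all 6 arrays with limma 3.58.1 in R 4.3.3 on 31741 probes. Calls needed a Benjamini-Hochberg adjusted p under 0.05. Of the probes, 24658 matched 1 symbol, 1002 matched several and 6081 had none, and each of 18255 genes took its probe with the highest mean log2 value. The sign was shared by 89.1% of 258 further probes of called genes. Saturation was set at 65500 whole-number units.

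The members and lists were chosen with earlier results of these data known. Named genes were the 12 highest and 12 lowest differences of log2(value + 50) among called genes, the 8 highest and 8 lowest called against both other groups, up to 4 called members of each list and a fixed panel, 98 in all. Among called genes of these 98, further probes of BCL2, CIART, LSS, MITF, MTHFD2L, NREP, TBXAS1 and TFEB were not called against resting. A further 43 genes were named after their values were seen: PIR, TRIM16L, CBR3, AKR1C1, PGD, ME1, GSR, NFKB2, RELB, NFKB1, BCL2A1, IER3, NFKBIZ, CCL3, CXCL3, CXCL9, CCL20, CCL22, CCL5, IL12B, IL1A, IL1RN, VCAM1, IL7R, MX2, IFI44L, IDO1, RSAD2, FGL2, CLEC10A, JAML, ICOSLG, NAIP, SELPLG, ITGAL, CTSL, ADAM17, TDO2, ACMSD, FYN, TCF4, SLA and BLNK. With 2 arrays a group, an exact permutation test cannot give a p under 0.333, and the number of arrays limits the precision. In a simulation of LC53 plus LPS against resting on 31741 probes, 2, 45, 50 and 50 of 50 probes changed by 1, 2, 3 and 4 on the log2 scale were called. In it 10 unchanged probes were called. The changed probes were drawn only from those with a mean log2 value above that of 50. Noise was normal and independent between arrays, with limma's own moderated variances. The simulation therefore cannot show how often changes in dim probes or under unlike noise would be found. Python 3.11.15 with pandas 2.3.3 and matplotlib 3.10.9 made tables and figures.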

Additional observations from a re-analysis of the deposited data

How the results depend on the processing

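Each alternative changed 1 choice. In the order quantile normalization, median centring, cyclic loess, an offset of 50 and probes with a mean of at least 50 only, called probes numbered 3494, 2440, 3370, 2197 and 1925 (941 with the values as deposited), higher genes 951, 666, 946, 763 and 680 (370), lower genes 1286, 859, 1203, 815 and 668 (273), genes called against both other groups in the same direction 601, 324, 588, 411 and 303 (113), and higher interferon-stimulated genes 17, 15, 16, 12 and 17 (7). Higher chemokines numbered 11 under quantile normalization, cyclic loess and the dim probe filter (7). With the 4 arrays of the 2 groups only, 1555 probes and 458 lower genes were called. Of the 643 called genes, 639, 642, 639, 604 and 578 were called in the same direction under the first 5 alternatives.

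Leaving out 1 array gave 75 to 1555 called probes, 42 to 549 higher genes, 7 to 458 lower genes, 9 to 219 genes against both groups, 1 to 8 cytokines, 5 to 9 chemokines, 5 to 22 NF-kB genes, 0 to 10 interferon-stimulated genes and 7 to 24 NRF2 targets. The high ends came without an LPS array, where the lone LPS array is assumed to vary like the other groups, except that the 9 chemokines came without LC53 plus LPS replicate 2. Fewer samples were left in each of these fits. For genes not called, the sign turned for DDIT3 without LC53 plus LPS replicate 2 (-0.02; 0.42 without replicate 1), HSPA1A without LC53 plus LPS replicate 2 and without resting replicate 2 (0.01 each, and down to -0.16 without LC53 plus LPS replicate 1), MX2 without resting replicate 2 (0.06, and -0.19 without replicate 1), NQO1 (-0.04 quantile, -0.00 median centring, -0.08 loess, -0.11 without resting replicate 1 and 0.29 without replicate 2) and CXCL9 (-0.09 quantile, -0.05 median centring, -0.09 loess). No call of the 141 named genes reversed. The NQO1 and CXCL9 differences given here are plain log2 values near the floor. The cause of these shifts was not tested.

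With the replicate number as a block, 481 probes, 210 higher and 127 lower genes, 36 genes against both groups, 3 cytokines, 13 NF-kB genes and 2 interferon-stimulated genes were called, and 29 of the 141 named genes lost the call. The deviations of replicate 1 correlated at 0.201 between resting and LC53 plus LPS, 0.058 between resting and LPS and -0.077 between LPS and LC53 plus LPS, so the numbers were not shown to pair the arrays.

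Low signal limits 29 higher and 26 lower genes whose group means were both under 50, and saturation limits NFKBIA and SOD2.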
